A study of Oryctolagus cuniculus with 6 samples.

Results

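Small leucine-rich proteoglycans were followed through the first week of healing in rabbit skull defects, with and without a dentin graft. The 5 genes described are OGN (osteoglycin), OMD (osteomodulin), LUM (lumican), DCN (decorin) and BGN (biglycan), of 23416 genes or unnamed array features measured. They were chosen by name, with earlier results of these data known. Their 19 probes were found by symbol, gene number or product name. Each gene is represented by its brightest probe over all arrays. All 5 were well above background on all 6 arrays and entered the test, which covered 20267 features.

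The animals were male New Zealand White rabbits of 4 months, 24 in all, each with 4 round holes of 5 mm in the parietal bones. Right-sided holes received 0.2 g of HPD, human particulated dentin, and those left without a filling served as controls in the same animals. The new tissue was taken on day 3, 5 or 7, and there was 1 single-dye array for each treatment and day. Pooling of RNA from several animals for an array is not stated in the labels. The p-values reflect the spread of 6 arrays alone around a fit with terms for day and treatment. This spread joins array variation, which may be technical, with any change of the difference between HPD and control over the days. The animals of both treatments carried the same wounds, so the controls are healing tissue and not resting bone. The series' design text also speaks of blood, whereas the labels call all 6 samples newly formed tissue.

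Small leucine-rich proteoglycans are secreted proteins built from repeats rich in leucine, and most of them carry sugar chains. They bind collagen fibrils and set how fibrils assemble and how thick they grow. Decorin and biglycan, which usually carry chondroitin or dermatan sulfate, also bind growth factors, and biglycan is abundant in bone. Lumican, osteomodulin and osteoglycin belong to the group that can carry keratan sulfate, and osteomodulin, also called osteoadherin, is largely a protein of mineralised tissue.

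The probes themselves show what was measured, and 1 coding probe of each gene is printed here because later results turn on where in the transcript a probe lies. All are 60 bases long, are given 5′ to 3′ as on the array and were read in the only frame, or the frame shared by the gene's probes, that held no internal stop codon. Capitals mark leucine codons in OGN, LUM, DCN and BGN, and codons for aspartate or glutamate in OMD.
OGN: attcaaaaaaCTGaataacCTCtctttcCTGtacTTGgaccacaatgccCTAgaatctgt
OMD: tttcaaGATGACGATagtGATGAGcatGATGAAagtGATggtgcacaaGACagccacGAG
LUM: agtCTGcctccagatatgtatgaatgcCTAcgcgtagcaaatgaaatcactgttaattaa
DCN: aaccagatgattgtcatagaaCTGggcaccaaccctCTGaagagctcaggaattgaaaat
BGN: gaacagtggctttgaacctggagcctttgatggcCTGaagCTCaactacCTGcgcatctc

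The OGN probe holds 5 leucine codons among 19 whole codons, a count of 5 or more that is found in 8.23% of the array's 40336 probes with an open frame. It starts at transcript position 734 and its 60 bases spread over 2594 bases of the genome (oryCun2, minus strand, chr1:70253982-70256575), so it crosses an exon junction. The OMD probe holds 10 acidic codons among 20, and only 0.166% of the open-frame probes hold 10 or more. Its position is chr1:70282499-70282558 on the minus strand, and it is the probe whose values are used for OMD. The LUM probe, at chr4:70316181-70316240 on the minus strand, ends with the stop codon as its last codon. The DCN probe crosses an exon junction as well, with its 60 bases spread over 568 bases at chr4:70372181-70372748 on the minus strand. The BGN probe, at transcript position 636, has 3 leucine codons, is the one used for that gene, and has no genome position in the array's columns. For OGN, LUM and DCN the brightest probe lies after the coding sequence, at chr1:70251590-70251649, chr4:70315640-70315699 and chr4:70357924-70357983, all on the minus strand, and holds a stop codon in the frame of the coding probes.

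All levels are log2 of the processed intensity minus the array's 75th percentile, so that 0 is the intensity which 75% of probes stay below. Levels of different probes are not comparable, and each gene is compared only with itself. Between 78.1% and 86.4% of spots were well above background on an array and 0 were saturated. This share was 86.4% with HPD and 84.2% in control on day 3. It was 81.5% and 84.4% on day 5, and 78.1% and 85.3% on day 7, so it was lower with HPD on these later days. Both day 3 arrays lay on slide 2 and the arrays of days 5 and 7 on slide 1, so differences from day 3 and between slides cannot be told apart, whereas day 7 minus day 5 lies within 1 slide. In this bulk tissue, fewer cells of a type and less RNA per cell cannot be told apart either.

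OGN belongs to the keratan sulfate group, and its product was first described in bone and also occurs in fibrous tissue. The level at its brightest probe was 0.05 in control and -0.19 with HPD on day 3, 3.73 and 2.17 on day 5, and 4.91 and 3.92 on day 7. The 6 arrays were thus ordered by day with no overlap, although control on day 5 lay just below HPD on day 7. The control array was the higher on each of the 3 days.

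For OMD, the acidic protein of bone matrix, the level was 0.56 in control and -0.05 with HPD on day 3, 3.51 and 1.33 on day 5, and 3.04 and 3.78 on day 7. Its order differs from that of OGN. Control reached its highest level on day 5, HPD was highest of all on day 7, and HPD on day 5 stayed well below both arrays of day 7.

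LUM, a regulator of fibril thickness in many connective tissues, stood at 5.18 in control and 5.45 with HPD on day 3, at 7.22 and 6.57 on day 5, and at 8.07 and 7.19 on day 7. HPD on day 7 lay close to control on day 5, and every array of days 5 and 7 was above those of day 3.

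Of the members that carry chondroitin or dermatan sulfate, DCN had levels of 4.90 in control and 4.93 with HPD on day 3, 5.51 and 4.93 on day 5, and 6.15 and 5.67 on day 7. The HPD arrays of days 3 and 5 therefore could hardly be told apart, with a difference of 0.00378. BGN read 1.89 in control and 2.55 with HPD on day 3, 3.17 and 2.77 on day 5, and 3.33 and 3.89 on day 7. For BGN the HPD array was the higher on days 3 and 7 and the lower on day 5. With 1 array per treatment and day there is no spread within a group, so neighbouring levels in these orders carry no test.

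**Figure D1:**
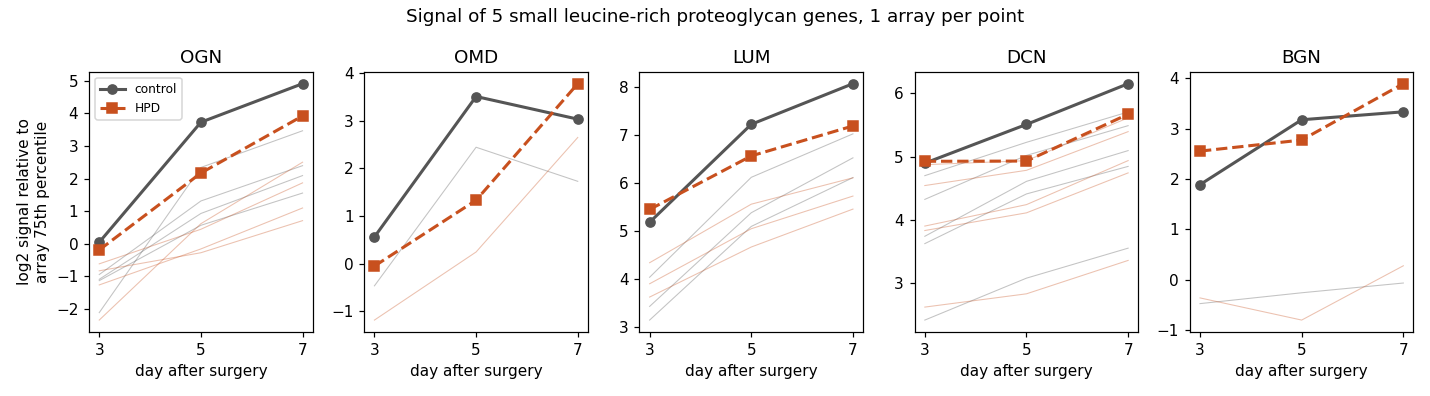
Level of the 5 genes (log2 relative to the array's 75th percentile) against day after surgery, with 1 point per array for control and for HPD. OGN goes from 0.05 to 4.91 in control, and OMD is the gene whose HPD array passes control only on day 7, at 3.78 against 3.04.

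The first comparison asked how the genes moved over the days, with treatment as a term. On day 7 OGN was 22.4-fold above day 3, a log2 difference of 4.49 ± 0.35 (SE, 6 arrays), and OMD 8.92-fold, a difference of 3.16 ± 0.71. LUM was 4.97-fold higher with a log2 difference of 2.31 ± 0.33, BGN 2.62-fold higher with 1.39 ± 0.32, and DCN 1.999-fold higher with 0.999 ± 0.22. The median of the 5 differences was 2.31, against -0.01 over all features tested. In each of the 5 genes both arrays of day 7 lay above both arrays of day 3, which held for 25.7% of features.

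None of these differences passed limma's test with Benjamini-Hochberg adjustment on the processed signal, where 0 of the 5 genes and 0.00493% of features, a single unnamed transcript, were called. The adjusted p (limma) was 0.119 for OGN and LUM, 0.145 for DCN, 0.146 for OMD and 0.149 for BGN. All 5 had an unadjusted p under 0.05 in the higher direction, as did 10.8% of features. When background was instead modelled with normexp from the raw spot and local background intensities, all 5 genes were called higher, against 2.8% of features. Under that setting limma's adjusted p was 0.00449 for OGN with a log2 difference of 4.22, 0.0133 for LUM with 2.25, 0.0280 for DCN with 1.17, 0.0332 for OMD with 2.98, and 0.0427 for BGN with 1.20. The sizes were thus close under both background corrections, although with normexp the median over all features was 0.17 in place of -0.01, and relative to it the normexp differences are smaller by that amount.

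Both treatments showed the higher levels on day 7. From day 3 to day 7 the control arrays differed by 4.86 in OGN, 2.48 in OMD, 2.89 in LUM, 1.25 in DCN and 1.44 in BGN on the log2 scale. Among the HPD arrays the same differences were 4.11, 3.84, 1.74, 0.74 and 1.34. In control all 5 genes were at least 2-fold higher on day 7 (6.66% of features), and with HPD 4 of the 5 were, with DCN under that fold (4.45% of features). OMD was the gene with the larger difference among HPD arrays. The differences between treatments in these time courses were not tested, since each rests on 1 array per treatment and day.

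In control, most of the day 7 difference of OGN, OMD, LUM and BGN was already present on day 5, and all 5 day 5 differences were smaller with HPD. In the fit over both treatments OGN was 8.11-fold higher on day 5, a log2 difference of 3.02 ± 0.35 with limma's adjusted p of 0.199. OMD differed by 2.17 ± 0.71, LUM by 1.58 ± 0.33, BGN by 0.75 ± 0.32 and DCN by 0.31 ± 0.22. Limma called 0 of the 5 (0.00493% of features), and OGN, OMD and LUM had an unadjusted p under 0.05 in the higher direction, as did 6.28% of features. Both arrays of day 5 lay above both of day 3 in all 5 genes (19.6% of features). Of the 5, OGN alone was called with normexp, at a log2 difference of 2.76 and limma's adjusted p of 0.0154, where 0.459% of features were called higher. In control, OGN, OMD, LUM and BGN were at least 2-fold higher on day 5 than on day 3, which 4.77% of features were. With HPD, OGN, OMD and LUM were (3.48% of features). The log2 difference in control against that with HPD was 3.68 and 2.36 for OGN, 2.95 and 1.39 for OMD, 2.04 and 1.12 for LUM, and 1.29 and 0.22 for BGN.

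Between day 5 and day 7, within a single slide, all 5 fitted differences were above 0 and none was called by limma, as 0% of all features were. OGN and DCN had an unadjusted p under 0.05 in the higher direction (4.76% of features), and with normexp 0 of the 5 were called (0.00493% of features). OGN was 1.47 ± 0.35 higher on the log2 scale, OMD 0.99 ± 0.71, LUM 0.73 ± 0.33, DCN 0.69 ± 0.22 and BGN 0.64 ± 0.32. Both day 7 arrays lay above both day 5 arrays in OGN, DCN and BGN (24.5% of features). OMD was 0.48 lower in control and 2.45 higher with HPD over these days, so its fitted mean joins arrays that moved in opposite ways. With HPD, OGN, OMD and BGN were at least 2-fold higher on day 7 than on day 5 (3.18% of features), while in control OGN alone was (2.95% of features).

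Grafted and unfilled defects were compared to see where these genes differed with HPD. Over the 3 days OGN at its brightest probe was lower with HPD by a mean log2 difference of -0.93 ± 0.29 (SE, 6 arrays). The 95% interval went from -1.69 to -0.16, and the coding probes of OGN, given below, had smaller differences. OMD differed by -0.68 ± 0.58 (interval -2.23 to 0.87), LUM by -0.42 ± 0.27 (-1.14 to 0.29) and DCN by -0.34 ± 0.18 (-0.82 to 0.14). BGN was the only member above 0, at 0.27 ± 0.26 (-0.42 to 0.97). The median of the 5 was -0.42, against 0.09 over all features.

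No gene passed limma's test for HPD, with 0 of the 5 and 0% of features called and adjusted p of 0.556 for OGN to 0.692 for BGN. At the brightest probes, OGN alone had an unadjusted p under 0.05, as had 8.55% of features. On the slide of days 5 and 7 alone the mean difference was -1.27 for OGN, -0.72 for OMD, -0.77 for LUM, -0.53 for DCN and 0.08 for BGN, none of them called. Without day 5, the difference of OMD turned to 0.07.

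The single days differ from each other more than the mean shows. On day 3, HPD minus control was -0.24 in OGN, -0.61 in OMD, 0.27 in LUM, 0.03 in DCN and 0.66 in BGN, so that 2 of the 5 were lower (36% of features). None was 2-fold or more apart on that day, against 2.9% of features lower and 3.57% higher by that much. The sign of DCN turned when arrays were scaled to their median, to -0.14, and that of OGN turned to 0.33 with its brightest coding probe.

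On day 5, all 5 genes were lower with HPD, by -1.56 in OGN, -2.18 in OMD, -0.66 in LUM, -0.58 in DCN and -0.40 in BGN, where 40.7% of features were lower. The 19 probes of the 5 genes, which include these 5, were all lower on the same 2 arrays. Some of them overlap in OGN, LUM and DCN, and they read the same 5 genes, so they are not independent of each other. The share over all probes was not counted. Control was 2.95-fold above HPD in OGN and 4.54-fold in OMD, and these were the 2 genes at least 2-fold lower, as were 1.68% of features. None of the 5 was 2-fold higher with HPD, as 4.89% of features were. The median of the 5 was -0.66 against 0.09 over all features. These values compare 2 arrays and carry no test.

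On day 7, HPD minus control was -0.99 in OGN, -0.88 in LUM and -0.48 in DCN, but 0.75 in OMD and 0.56 in BGN. Thus 3 of the 5 were lower (41.1% of features), none by 2-fold or more (0.849% of features). OMD was 1.68-fold higher with HPD, and none reached 2-fold (1.62% of features). OMD and BGN shared the pattern of lower with HPD on day 5 and higher on day 7, which 19% of features had. LUM and DCN were above control on day 3 and below it on days 5 and 7, a pattern of 11.3% of features, with the exception for DCN given above.

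**Figure D2:**
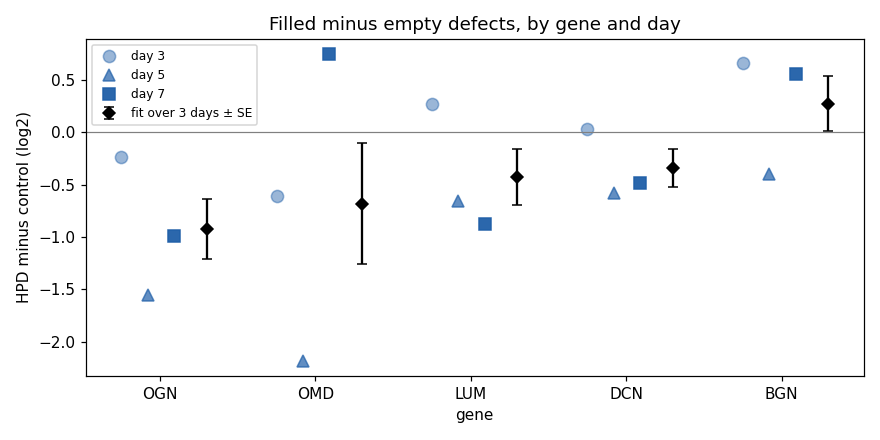
HPD minus control (log2) of the 5 genes on days 3, 5 and 7, from 1 array of each treatment per day. All 5 lie below 0 on day 5, down to -2.18 in OMD, and OMD and BGN lie above 0 on day 7.

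Probes along the same transcript did not always give the same size. The 3 coding probes of OGN, from transcript positions 639 to 774, were 7.52-fold, 4.32-fold and 6.82-fold higher on day 7 than on day 3, with log2 differences of 2.91 ± 0.33, 2.11 ± 0.35 and 2.77 ± 0.29. The pair after the coding sequence, at positions 2331 and 2396, gave 5.21 ± 0.39 and 4.49 ± 0.35, or 37.0-fold and 22.4-fold. The OGN probe printed above is the middle one of the coding probes and gave the smallest of the 5 values. For HPD, the coding probes of OGN gave mean differences of -0.36 ± 0.27, -0.46 ± 0.29 and -0.75 ± 0.23. The later pair gave -0.97 ± 0.32 and -0.93 ± 0.29. The interval and unadjusted p given above for OGN thus belong to the brightest probe, after the coding sequence.

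The other genes varied less, apart from BGN. The 4 LUM probes, 2 of them coding, gave day 7 minus day 3 differences from 2.31 to 2.46, and the 2 OMD probes 3.02 and 3.16. The 6 DCN probes ranged from 0.87 to 1.19. In DCN the mean HPD difference was between -0.12 and -0.04 at the 5 coding probes, against -0.34 ± 0.18 at the brightest probe. The 2 BGN probes disagreed, with a day 7 minus day 3 difference of 1.39 ± 0.32 at position 636 and 0.52 ± 0.27 at position 1129, where the probe spans the stop codon. Their mean HPD differences were 0.27 and -0.03. All 19 probes, some of which overlap in OGN, LUM and DCN, were higher on day 7 than on day 3 in both treatments.

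**Figure D3:**
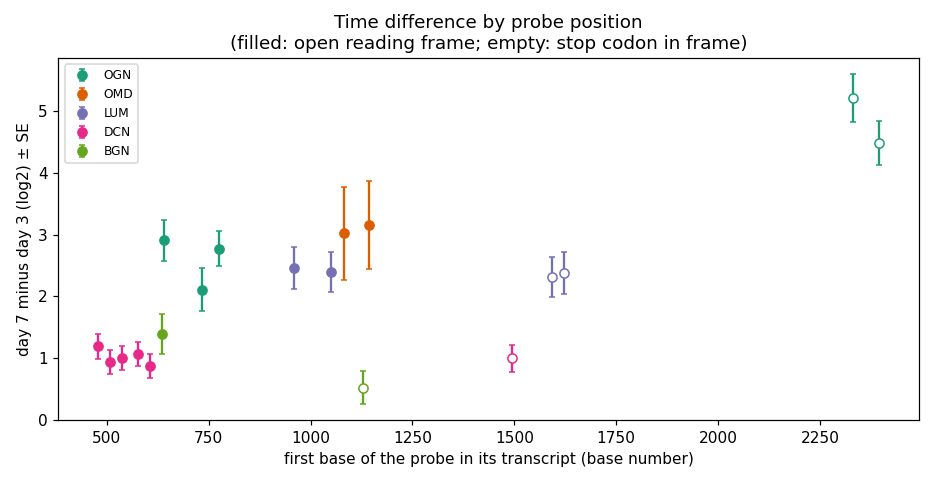
Day 7 minus day 3 (log2 ± SE from the limma fit over 6 arrays) of all 19 probes of the 5 genes against their start in the transcript, in bases. The OGN values are 2.11 to 2.91 at the 3 coding probes and 4.49 and 5.21 at the pair after the coding sequence, whereas the LUM probes lie between 2.31 and 2.46.

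Genes of this family lie in clusters. In the RefSeq assembly mOryCun1.1 the order is ECM2, ASPN, OMD, OGN on one stretch and EPYC, KERA, LUM, DCN on another. On the array, 7 of 13 other family genes were named and tested, and day 7 minus day 3 was above 0 in 4 of these and below 0 in 3, with a median of 0.14. ECM2, which encodes an extracellular matrix protein with leucine-rich repeats and lies at chr1:70346992-70350010 in oryCun2, had the largest of the 7 differences. Its level was 0.74 in control and 0.47 with HPD on day 3, 2.55 and 1.44 on day 5, and 3.62 and 2.44 on day 7. Its level was thus higher on each later day in both treatments and lower with HPD on each day, as for OGN at its brightest probe. On day 3 the sign in OGN depended on the probe. The day 7 minus day 3 difference of ECM2 was 2.43 ± 0.29 with limma's adjusted p of 0.119, and it was called with normexp. Its mean HPD difference was -0.85 ± 0.23, with limma's adjusted p of 0.556.

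Values of the other family genes were as follows. EPYC, a proteoglycan of cartilage, had a day 7 minus day 3 difference of -0.24 ± 0.20, and KERA, best known from the cornea, of -0.20 ± 0.18 at its brightest probe and 0.61 at its other probe. FMOD, or fibromodulin, a collagen-binding relative of lumican, had 0.56 ± 0.48 and was well above background on 5 of the 6 arrays. PODN differed by 0.53 ± 0.29, PRELP by 0.14 ± 0.16 and OPTC by -0.52 ± 0.57, the last on 4 arrays above background. For HPD the 7 genes had a median of 0.07, with 4 above and 3 below 0, and none was called. The 6 family genes ASPN, CHAD, CHADL, NYX, TSKU and PODNL1 were not matched by name and were not analysed here.

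**Figure D4:**
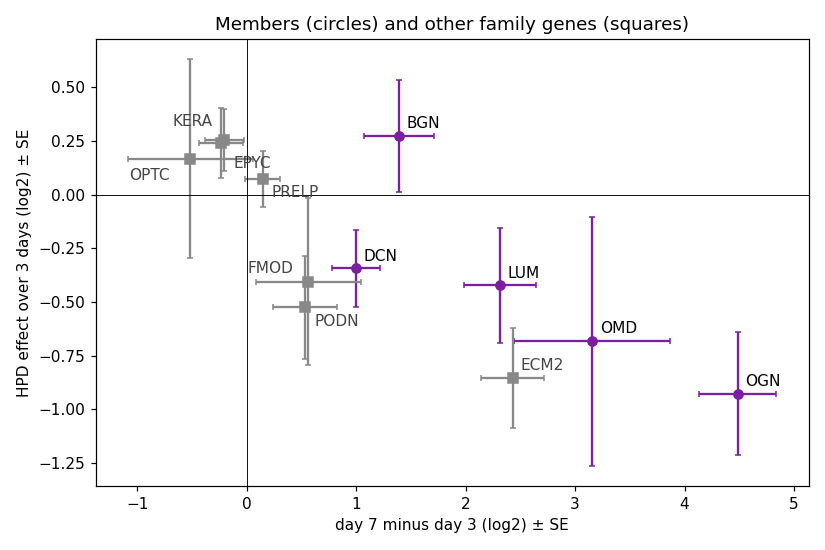
Mean HPD minus control over 3 days against day 7 minus day 3 (both log2 ± SE from the limma fit over 6 arrays) for the 5 genes (circles) and 7 other family genes (squares). ECM2, at 2.43 and -0.85, lies among the 5 genes, while EPYC, KERA, OPTC and PRELP lie at 0.14 or below on the horizontal axis.

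Collagens that these proteoglycans bind had higher values on day 7 as well. Of 11 measured, 10 were above and 1 below day 3, with a median difference of 1.66 against -0.01 over all features. Limma called 0 on the processed signal (0.00493% of features) and 8 higher with normexp (2.8% of features). COL11A2 was 3.67 ± 0.60 higher on the log2 scale (limma, adjusted p 0.120), COL5A2 2.22 ± 0.47, COL3A1 1.92 ± 0.30 and COL5A1 1.72 ± 0.34. Among genes of collagen maturation, 13 of 13 were above day 3, with a median of 0.58 against -0.01 over all features. P4HA2, a prolyl hydroxylase, and SERPINH1, the collagen chaperone, were called with normexp. Their processed-signal differences were 1.18 ± 0.20 and 1.41 ± 0.34. On day 5, 9 of 11 collagens and 12 of 13 maturation genes were lower with HPD, as were 40.7% of features. The medians were -0.55 and -0.34, against 0.09 over all features. On day 7 these medians were -0.04 and 0.24, against 0.06 over all features, of which 41.1% were lower. Mineralised matrix genes had a median of -0.54 on day 5, with 4 of 8 higher and 4 lower with HPD, and of 0.78 on day 7, when 7 of 8 were higher.

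Genes for the enzymes that build the sugar chains lay on both sides of 0. Of 10 chondroitin and dermatan sulfate enzymes, 6 were above and 4 below their day 3 level on day 7, with a median of 0.02. CSGALNACT1, which starts the chondroitin chain, differed by -1.18 ± 0.18, and CHSY3, which extends it, by 1.23 ± 0.31. With normexp these differences were -0.15 ± 0.16 and 0.93 ± 0.20, so that of CSGALNACT1 depended on the background correction. Of 7 keratan sulfate enzymes, 2 were above and 5 below, with a median of -0.13. None of these 17 genes was called under either background correction. With HPD the median over 3 days was 0.16 for the chondroitin and dermatan sulfate enzymes and 0.30 for the keratan sulfate enzymes, with 6 of 7 above 0, against 0.09 over all features. Most of the keratan sulfate values were smaller with normexp. They were -0.28 in B4GALT4, 0.28 in B3GNT2 and between 0.06 in CHST1 and 0.11 in ST3GAL3 for the others.

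Partners and proteases were mixed. Of 17 growth factors and receptors that bind decorin or biglycan, 5 were above and 12 below on day 7, with a median of -0.20, and TLR2 and CD14, through which biglycan can signal in macrophages, were called lower with normexp at processed-signal differences of -0.77 ± 0.17 and -0.89 ± 0.22. With normexp 2.24% of features were called lower. Of 10 proteases of proteoglycans, 7 were above day 3 and 3 below, with a median of 0.50. MMP12, the macrophage elastase, was the protease with the largest HPD difference, 1.65 ± 0.24, which limma did not call. Of 9 large and membrane proteoglycans, 4 were above and 5 below, and SRGN, the proteoglycan of blood cell granules, was called lower with normexp at a processed-signal difference of -2.29 ± 0.52. Of 8 mineralised matrix genes, 6 were above, with a median of 0.79, and DMP1, a matrix protein of osteocytes, was called higher with normexp at a processed-signal difference of 4.03 ± 0.79.

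Genes with the most similar profile were sought among 9102 named genes, by the root mean square difference of log2 levels after centring each gene on its own mean over the 6 arrays. OGN was nearest to COL11A2, at 0.533, then to TNMD at 0.601, a tendon glycoprotein, and to ITGBL1 at 0.684. OMD was nearest to ECRG4 at 0.251, COL11A2 at 0.265 and PHEX at 0.310, the last an endopeptidase of bone and tooth cells. For LUM these were IGSF10 at 0.184, COL3A1 at 0.202 and PAWR at 0.204. DCN had MACROH2A2 at 0.0681, TMEM106B at 0.0688 and THSD1 at 0.0691, and BGN had RIC8B at 0.102, CERK at 0.132 and DENND2C at 0.137. A gene with small differences over days has small distances to many others, so these distances are not compared between genes.

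Markers of several cell types differed between the arrays too. In each sum the brightest probe weighs most. The summed linear level of 6 osteoblast markers was 35.8 in control and 36.1 with HPD on day 3, 161 and 46.6 on day 5, and 88.8 and 182 on day 7, relative to the array's 75th percentile. Control on day 5 and HPD on day 7 were the highest arrays, as for OMD. Without IBSP, its brightest marker, the sum was 23.6 and 22.4, then 45.9 and 19.5, then 45.4 and 97.7. Most of this remainder is COL1A1, which is also counted among the collagens above. Its log2 levels were 4.36 and 4.27, then 5.29 and 4.03, then 5.33 and 6.48. On day 5, 5 of the 6 markers were lower with HPD (40.7% of features lower). On day 7 all 6 were higher, when 41.1% of features were lower.

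The sum of 5 fibroblast markers was 280 and 333, then 848 and 566, then 1586 and 932, but COL3A1 alone made up 90.3% to 96.6% of it. Without COL3A1 the sum was 9.62 and 14.0, then 41.2 and 49.7, then 154 and 66.2. The other fibroblast markers thus did not go with COL3A1 on day 5, when PDGFRB, FAP, POSTN and DPT were above control with HPD, by 0.59, 0.17, 0.25 and 1.36 on the log2 scale, and COL3A1 was at -0.64. On day 7, 4 of the 5 fibroblast markers were lower with HPD (41.1% of features), with a median of -0.93. All measured osteoblast and fibroblast markers were well above background on all 6 arrays. RUNX2 and SPARC of the osteoblast list and PDGFRA and THY1 of the fibroblast list were not tested. Of 4 tendon and periosteum markers, all were above day 3 on day 7, with a median of 1.55. Among them, 3 were well above background on all 6 arrays. CTSK, which is also in the list of proteases, is 1 of the 4 and differed by 0.48 ± 0.37. TNMD and PRRX1, a transcription factor of skeletal progenitors, were called higher with normexp. With HPD 3 of the 4 tendon and periosteum markers were lower on day 5 (median -0.67, 40.7% of features lower). On day 7, 2 of 4 were (41.1% of features).

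Blood cell markers ran the other way in part. The sum of 5 neutrophil markers was 1431 in control and 514 with HPD on day 3, 213 and 649 on day 5, and 14.9 and 46.9 on day 7. On day 5, when all 5 genes were lower with HPD, it was the HPD array that had the higher neutrophil sum. The macrophage sum of 5 markers lay between 16.1 and 40.7 and was higher with HPD on each day. The red cell sum of 4 markers lay between 11.3 and 70.0, and ALAS2 made up 91.0% to 94.9% of it. The chondrocyte sum lay between 6.25 and 11.2, with COL2A1 at 72.1% to 96.1% of it. Without COL2A1 the chondrocyte sum was 0.298 in control and 0.254 with HPD on day 3. It was then 2.36 and 0.563 on day 5, and 2.08 and 2.54 on day 7. Of the 4 chondrocyte markers measured, 3 were well above background on all 6 arrays. The part of these cell types in the differences of the 5 genes was not tested.

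**Figure D5:**
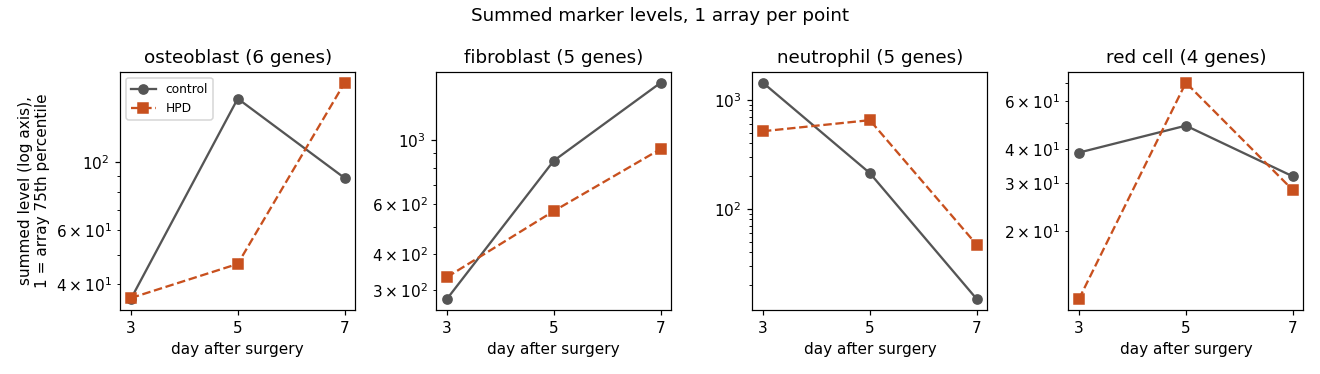
Summed linear level of osteoblast, fibroblast, neutrophil and red cell markers relative to each array's 75th percentile, on a log axis, by day and treatment with 1 array each. The osteoblast sum is highest with HPD on day 7 (182) and in control on day 5 (161), the fibroblast sum is at least 90.3% COL3A1, and the neutrophil sum is 1431 on day 3 and 14.9 on day 7 in control.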

How the data were processed

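Each array was deposited as spot intensity, on a linear scale and with background subtracted, made by Agilent Feature Extraction 10.5.1.1 per the file headers. The rabbit array was designed against oryCun2. Per the labels' protocols 0.2 µg of RNA was labelled with Cy3. Each array had 43803 non-control spots for 43603 probes, and the number of arrays limits the precision.

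The processed intensity was put on a log2 scale, and the 75th percentile of the array was subtracted. Outlier spots were dropped (41 probes lost), and spots of a probe were averaged. Names came from the array's columns and a RefSeq table of mOryCun1.1, and 23758 probes had 1 symbol, 146 several and 19699 none. The brightest probe stood for a gene. Features well above background on at least 3 arrays were tested (20267 of 23416). Probes for an osteomodulin-like gene, whose gene number is OMG in RefSeq, were not counted as OMD.

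Features were tested in limma 3.58.1 (R 4.3.3, tables read with package data.table, version 1.17.8). Day and treatment were additive terms, and Benjamini-Hochberg adjustment at 0.05 ran over all tested features. The residual had 2 degrees of freedom, with 2.46 from the prior. The script was tested on simulated data. Single days were compared without a test. Python 3.11.15 with numpy 2.4.6, pandas 2.3.3 and matplotlib 3.10.9 made the summaries and plots.

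The members and lists were chosen with earlier results of these data known. Named are the 5 genes, all measured family genes, up to 4 genes of each other list per comparison by size of difference, and the 3 most similar genes. Alternatives were normexp (offset 50), quantile and median scaling, other filters, the mean of all probes, other model terms, each day left out and, chosen after seeing the data, the brightest coding probe.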

Additional observations from a re-analysis of the deposited data

Results flagged for a closer look

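In 4 of the 5 genes the difference between HPD and control had opposite signs on 2 days. In each case 1 array stands for each treatment and day, and the change of the difference between days was not tested. The share of all features with opposite signs on any 2 days was not counted, so 4 of 5 is not read as particular to these genes. Of the narrower patterns, that of OMD and BGN on days 5 and 7 was found in 19% of features. That of LUM and DCN over the 3 days was found in 11.3%. In OMD, HPD minus control went from -0.61 on day 3 and -2.18 on day 5 to 0.75 on day 7, a change of 1.36 and of 2.93 on the log2 scale. In BGN it went from 0.66 on day 3 to -0.40 on day 5, a change of -1.07, and to 0.56 on day 7, a change of 0.96. In LUM it was 0.27 on day 3 and then -0.66 and -0.88, which are changes of -0.92 and -1.15. In DCN it was 0.03 on day 3 and then -0.58 and -0.48, changes of -0.61 and -0.51, and the day 3 sign turned with median scaling. Day 3 lies on another slide than days 5 and 7, so that the changes from day 3 and the slide cannot be told apart, while those of OMD and BGN from day 5 to day 7 lie within 1 slide.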

How the results depend on the processing

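The number of features called depended on the processing, and the direction of the members rarely did. For day 7 minus day 3, 1 feature was called, against 1022 with normexp, 380 without the treatment term, and 0 with quantile scaling or no filter. For day 5 minus day 3 it was 1, against 259 with normexp, 17 without the treatment term, and 0 with quantile scaling or no filter. For day 7 minus day 5 it was 0, against 2 with normexp and 3 without the treatment term. For HPD it was 0 under every alternative run, including each day left out in turn. Features with an unadjusted p under 0.05 for HPD numbered 903 to 1843. Among the values of single members, 8 gained a call, and 4 changed sign. The HPD difference of OMD, -0.68, ranged from -1.397 without day 7 to 0.0666 without day 5. The day 7 minus day 5 difference of OMD, 0.99, was -0.48 in control arrays alone. On day 3, HPD minus control went from 0.03 to -0.14 in DCN with median scaling and from -0.24 to 0.33 in OGN with the brightest coding probe. Day as a block paired control and HPD of each day in the HPD fit, and without it limma's adjusted p of OGN was 0.939 in place of 0.556. The labels give no replicate numbers for another pairing. Without the treatment term OGN and LUM were called higher for day 7 minus day 3 by limma, with adjusted p of 0.0297 and 0.0410. With the brightest coding probe, day 7 minus day 3 was 2.91 in OGN. The limits are 1 array per treatment and day, 2 residual degrees of freedom, and a slide that cannot be told apart from day 3.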

Other observations

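An unnamed expressed sequence, DN887252, has its probe at chr1:70281792-70281851 on the plus strand (oryCun2), beside the OMD probes on the minus strand. It was singled out after its values were seen. Its level was -3.80 in control and -4.13 with HPD on day 3, -2.02 and -3.28 on day 5, and -2.47 and -1.65 on day 7, and the probe was well above background on all 6 arrays. The order of the 6 arrays was the same as for OMD, with HPD highest on day 7 and control next on day 5.

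Beside LUM, 4 unnamed probes lie on the plus strand at chr4:70315068-70315247 (oryCun2), and they too were singled out after their values were seen. Mean day 7 minus day 3 over both treatments was 2.57, 1.04, 2.09 and 2.25 on the log2 scale along the chromosome. In control it was 3.89, 1.40, 2.35 and 2.33, and with HPD 1.26, 0.68, 1.83 and 2.17. Neighbouring probes overlap. The last of them was well above background on 5 arrays and the others on all 6.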
